A study of Mus musculus with 2 samples.

Results

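The Hippo pathway core genes are a set of 10 genes chosen by name: the kinase genes Stk3, Stk4, Lats1 and Lats2, their scaffold and adaptor genes Nf2 and Sav1, the coactivator genes Yap1 and Wwtr1, and the genes of the DNA-binding factors Tead1 and Tead2. Each was looked up by symbol on the array, and 9 of the 10 were measured, of 19938 genes in all. Stk3 had no transcript cluster of its own in the annotation used here, where a transcript cluster is a group of probes that measures a gene or a piece of it. The rule looks genes up by name, though the set was proposed with earlier results of these arrays known.

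In mammalian cells the kinases MST1 and MST2 (from Stk4 and Stk3), held by the adaptor SAV1, phosphorylate and activate the kinases LATS1 and LATS2, and merlin, the product of Nf2, brings LATS to the membrane. Active LATS phosphorylates the coactivators YAP and TAZ (from Yap1 and Wwtr1), which then stay in the cytoplasm or are degraded. Unphosphorylated YAP and TAZ enter the nucleus and switch on genes through the TEAD factors, which bind DNA. The pathway reads cell density, cell shape and tension of the actin cytoskeleton, and in the fly it receives input from the atypical cadherin Fat. Its kinases are also known to act in immune cells. Control of YAP is by phosphorylation, which an mRNA array does not measure.

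The samples were cultures of BV2, an immortalized line derived from mouse microglia, the macrophages that reside in the brain. Cells were plated in DMEM/F12, a medium richer in nutrients. On the next day they were moved to DMEM (high glucose) or given DMEM/F12 again, each medium with fetal bovine serum and antibiotics. Per the labels the incubation lasted over 1 day, while the study's methods give 1 day. The study asked which genes go with the elongated cell shape seen in DMEM/F12. The RNA of 1 sample per medium was hybridized to 1 Affymetrix Mouse Gene 1.0 ST array, so there are 2 arrays, no replicates and no test, and a difference between the arrays cannot be told apart from a difference between cultures of the same medium.

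All values are log2 expression values as deposited, and differences are DMEM/F12 minus DMEM, so that a positive one means more signal in DMEM/F12. Genes of olfactory, vomeronasal and taste receptors, which a microglial line should not use, set the background: the 95th percentile of their 1245 clusters was 4.15 on the DMEM array and 4.17 on the DMEM/F12 array. Of 12 microglia and macrophage markers, 10 were above background on both arrays, where 12545 of all 19938 genes were. The macrophage identity of the cells was visible in the level of the highest, the CD68, TYROBP and FCER1G genes at 11.10 to 11.40. Cx3cr1, another of the 10, had only 5.34 on the DMEM array and 5.26 on the DMEM/F12 array. Aif1, which encodes IBA1, and the homeostatic microglia gene P2ry12 were not above background on either array, and Tmem119, another such gene, had 6.71 on the DMEM array and 6.05 on the DMEM/F12 array. Of 32 measured markers of fibroblasts, epithelium, endothelium, astrocytes, neurons and oligodendrocytes, 15 passed background on 1 array or both, and the highest was 6.06. Passing this background therefore did not by itself mark a gene that BV2 cells use.

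Of the kinase, scaffold and adaptor genes, all measured ones but Lats2 stood clear of background in both media, while the coactivator and TEAD genes lay near or below it, and the arrays differed little for any of them. Nf2, Stk4, Sav1 and Lats1 lay 2.99 to 4.25 above background on the log2 scale. Lats2, Yap1, Wwtr1 and Tead2 lay only 0.08 to 1.11 above it, and Tead1 lay below it. Of the 9 measured genes, 8 were above background, against 66.3% of all genes. Between the media, 5 had a higher value in DMEM/F12 and 4 a lower one (Tead1 by -0.005), against 47.2% and 45.5% of all genes. The differences of the 9 ran from -0.27 to 0.17.

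**Figure D1:**
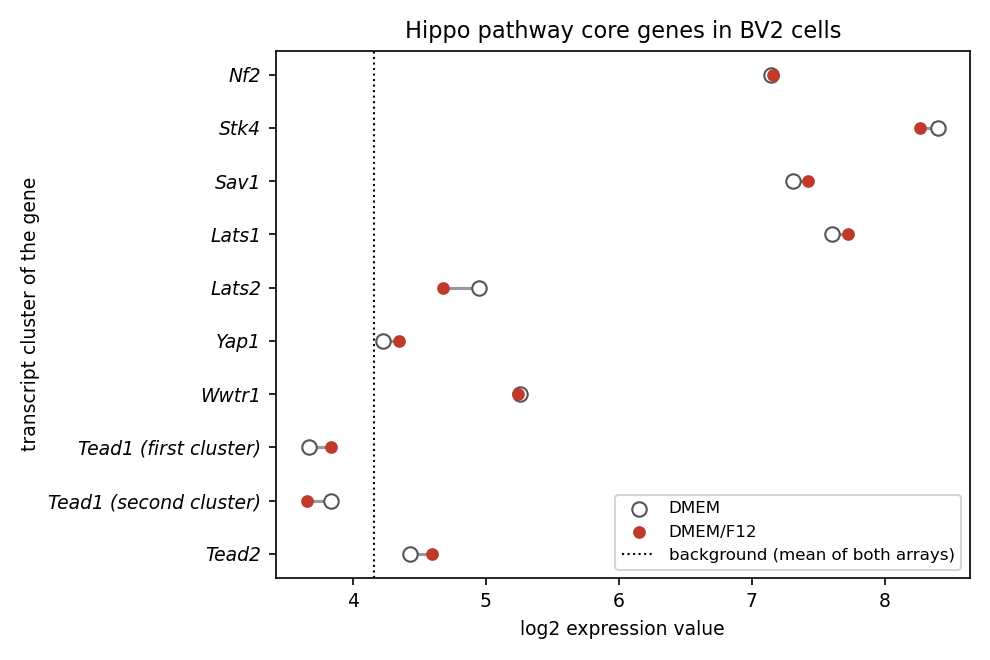
Log2 value (x axis) of the transcript clusters of the 9 measured core genes (y axis) in DMEM (open circles) and DMEM/F12 (red circles), 1 array each, with a gray line joining both values and a dotted line at background. Nf2, Stk4, Sav1 and Lats1 lie far to the right of background, the other genes lie near it, and the circles of each gene lie close together.

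Stk4, Sav1, Nf2 and Lats1 were the members that stood clear of background. Stk4, the gene of the MST1 kinase, read 8.40 on the DMEM array and 8.26 on the DMEM/F12 array, a difference of -0.14. Sav1, the gene of the adaptor that couples MST to LATS, had 7.31 on the DMEM array and 7.42 on the DMEM/F12 array, a difference of 0.11. On the DMEM array none of the 1245 receptor clusters reached the value of Stk4, Sav1, Lats1 or Nf2, and on the DMEM/F12 array 1 reached that of Nf2. Nf2, the gene of the membrane scaffold merlin, had 7.14 on the DMEM array and 7.16 on the DMEM/F12 array, a difference of 0.02. Lats1 had 7.60 on the DMEM array and 7.72 on the DMEM/F12 array, a difference of 0.12. The 4 genes thus differed by at most 0.14 in size, with Stk4 lower and the other 3 higher in DMEM/F12.

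Lats2 had the largest difference of the 9 genes, in the opposite direction to Lats1. It read 4.95 on the DMEM array and 4.68 on the DMEM/F12 array, a difference of -0.27, or 1.21-fold lower in DMEM/F12. Lats1 and Lats2 encode related kinases that act on the same substrates, and the gap between their differences was 0.39. The Lats2 signal was low: 12 receptor clusters in DMEM and 23 in DMEM/F12 had a value as high. Of all genes, 21.6% differed between the arrays by as much as Lats2 or more, in either direction. Lats2 is also a known target gene of YAP, through which the pathway feeds back on itself.

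The coactivator genes were close to background. Yap1 had 4.23 on the DMEM array and 4.35 on the DMEM/F12 array, a difference of 0.12, and 51 receptor clusters in DMEM and 44 in DMEM/F12 were as high. Wwtr1, the gene of TAZ, which is not the mouse gene Taz of tafazzin, had 5.26 on the DMEM array and 5.24 on the DMEM/F12 array, a difference of -0.02. It stood somewhat further above the receptor genes, of which 8 were as high on each array. Among the 32 markers of other cell types, 15 in DMEM and 11 in DMEM/F12 were at or above the value of Yap1, and 3 on each array at or above that of Wwtr1. With these signals the arrays do not show whether BV2 cells express Yap1.

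The TEAD genes lay near or below background too. Tead2 had 4.43 on the DMEM array and 4.60 on the DMEM/F12 array, a difference of 0.17 and the highest of the 9, and 38 and 28 receptor clusters were as high. Tead1 was covered by 2 clusters, both below background on both arrays, and they went opposite ways: the first had 3.67 on the DMEM array and 3.84 on the DMEM/F12 array (a difference of 0.17), the second 3.84 and 3.66 (a difference of -0.18). Their mean, which stands for the gene here, differed by -0.005. The gap of 0.35 between both clusters is larger than the difference of any of the 9 genes between the media.

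The core genes lay inside the spread of all genes. None reached 2-fold or 1.5-fold in either direction, where 0.0602% of all genes were at least 2-fold higher and 0.0251% at least 2-fold lower in DMEM/F12, and 0.928% and 0.727% passed 1.5-fold. At 1.2-fold, Lats2 alone passed, as lower in DMEM/F12, against 10.5% of all genes, and none passed as higher, against 11.2%. Lats2 lay just inside that threshold at -0.27, and Tead2, at 0.17, was the next in size outside it. The median difference of the 9 genes was 0.02, and 0.065 for the 8 above background, against 0.00 for all genes. The interquartile range of all genes' differences ran from -0.14 to 0.15 and held 7 of the 9 core genes. The SD over all genes was 0.226, and the differences of 8 of the 9 were smaller than that. Those of most genes were smaller too, since 43.5% of all genes differed by as much as Tead2 (0.17) or more in either direction. Since the spread over all genes contains differences between genes as well as noise, it is not an error of any one gene.

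**Figure D2:**
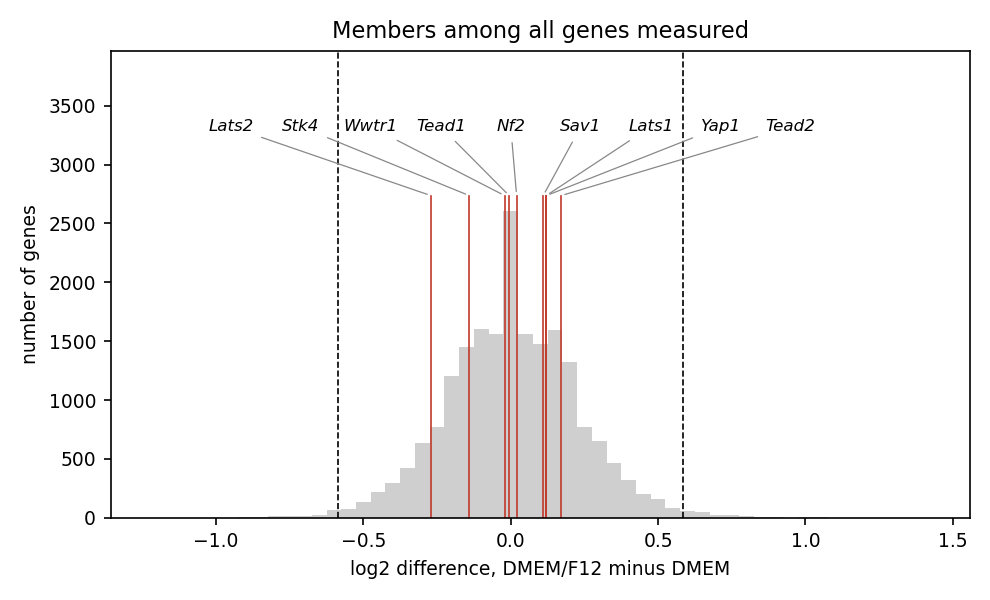
Number of genes (y axis) at each log2 difference (x axis, DMEM/F12 minus DMEM, bins of 0.05), for all 19938 genes in gray, with a red line at each of the 9 measured core genes and dashed lines at 1.5-fold. All 9 red lines lie between -0.27 and 0.17, inside the dashed lines.

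Genes that work beside the core kinases were also mostly well above background. The list of kinase partners holds the LATS cofactors MOB1A and MOB1B, the NDR kinases, the MAP4K and TAO kinases that can also phosphorylate LATS, and the RASSF proteins, which bind MST. Of its 18 measured genes, 17 were above background, 7 read higher in DMEM/F12 and 10 read lower, and the median was -0.02. The shares over all genes were 66.3% above background, 47.2% higher and 45.5% lower. Mob1a had 7.27 on the DMEM array and 7.24 on the DMEM/F12 array, and Mob1b 7.15 and 7.28, so both cofactor genes read clearly and stayed within 0.13. Past 1.2-fold, 2 of the 18 were higher in DMEM/F12 and none was lower, against 11.2% and 10.5% of all genes. These were Rassf4, with 7.88 on the DMEM array and 8.37 on the DMEM/F12 array (a difference of 0.49), and Tnik. Tnik, a MAP4K-family kinase gene, had 4.82 and 5.26 (a difference of 0.44). Next in size were Mink1, another kinase gene of that family, at 0.25 and Rassf2 at -0.25.

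STRIPAK is a phosphatase complex that removes phosphate from MST and so opposes the cascade. Of its 15 measured genes, 13 were above background, 8 were higher and 6 lower, against 66.3%, 47.2% and 45.5% of all genes. The median was 0.04. Pdcd10, the gene of an adaptor that binds kinases related to MST, had the largest difference of those above background, with a mean over 2 clusters of 5.60 on the DMEM array and 5.12 on the DMEM/F12 array (a difference of -0.48), and these clusters differed by -0.32 and -0.63. Sike1, whose product is a subunit of the complex, had 7.37 on the DMEM array and 7.73 on the DMEM/F12 array (0.36), and Cttnbp2nl, also of the complex, differed by 0.22.

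Genes of proteins that act at the membrane and at cell junctions showed more higher than lower values. Of 19 measured, 14 were higher and 5 lower in DMEM/F12, with a median of 0.08, and 5 were at least 1.2-fold higher and 1 at least 1.2-fold lower, against 11.2% and 10.5% of all genes. Frmd6, a FERM-domain gene of the upstream pathway, had 5.78 on the DMEM array and 5.39 on the DMEM/F12 array, a difference of -0.39. Wwc1, the gene of KIBRA, a partner of merlin, had 3.89 on the DMEM array, below background, and 4.30 on the DMEM/F12 array, a difference of 0.41. The polarity gene Crb3 had 4.96 and 5.24, a difference of 0.28. Apart from Wwc1, the genes counted as at least 1.2-fold higher lay at 0.27 or 0.28, just past the threshold of 0.263. Over all genes 47.2% were higher in DMEM/F12, and the list median of 0.08 became 0.02 when values below background were raised to it.

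Genes that hold YAP in the cytoplasm or lead to its degradation are the 14-3-3 genes, casein kinase 1 genes and parts of a ubiquitin ligase. All of those measured lay above background, against 66.3% of all genes. Of 13 measured, 3 read higher in DMEM/F12 and 10 lower, against 47.2% and 45.5% of all genes, and the median was -0.065. Skp1, an adaptor of that ligase, had 6.67 on the DMEM array and 6.29 on the DMEM/F12 array, a difference of -0.38. Its F-box partner gene Fbxw11 differed by -0.23 and Csnk1e, a casein kinase 1 gene, by 0.20. Among the remaining TEAD genes and the vestigial-like genes, whose products bind TEAD, Vgll4, a competitor of YAP, had the one clear signal, with 7.32 on the DMEM array and 6.92 on the DMEM/F12 array (a difference of -0.40). Tead3 had 4.95 and 4.82, Tead4 had 4.65 on both arrays, and Vgll1, at 4.16 and 4.20, was barely above background. Of these 6 genes, 1 was higher and 3 were lower in DMEM/F12, against the same 47.2% and 45.5% of all genes.

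**Figure D3:**
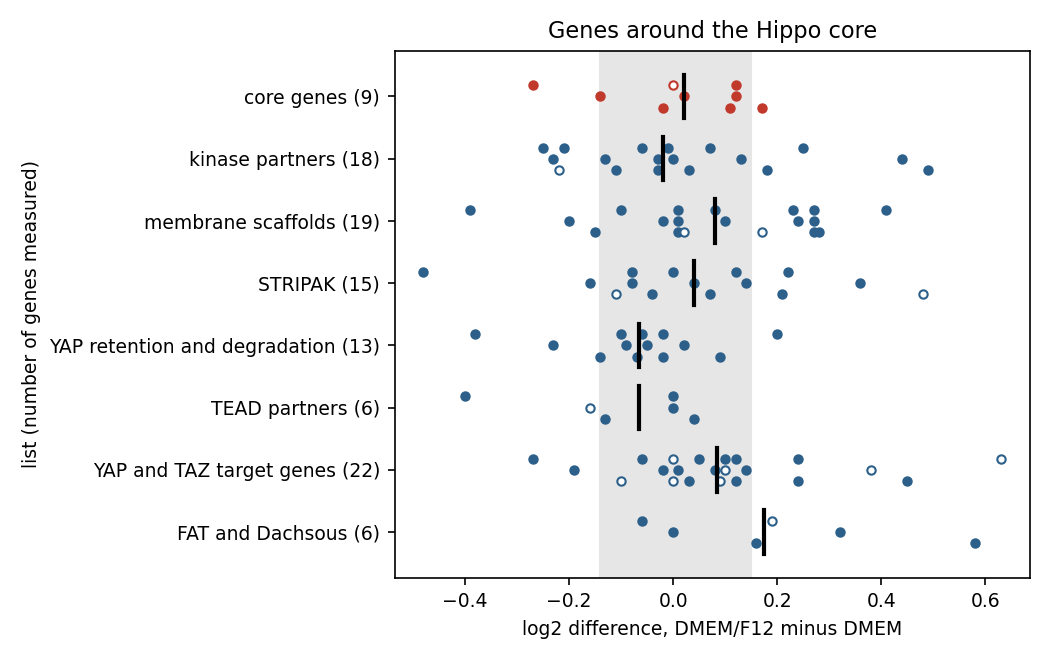
Difference on the log2 scale (x axis, DMEM/F12 minus DMEM) for each measured gene of the core (red) and of 7 lists around it (blue) (y axis, number of measured genes in parentheses). Filled dots are genes above background on at least 1 array and open dots are not, black bars are list medians, and the gray band is the interquartile range of all genes, from -0.14 to 0.15; list medians run from -0.065 to 0.175.

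Known target genes of YAP and TAZ give another view of the nuclear part of the pathway. The promoters of some are shown here with the TEAD site, the letters GGAATG or, read on the other strand, CATTCC, in capitals, together with those of Yap1 and Wwtr1, which hold the same letters. The windows are from RefSeq on GRCm38.p6, are all on the minus strand, run 5′ to 3′ in the direction of the gene and end at the base before its start, or 43 bases before it for Yap1, where a longer transcript of the gene begins.
Yap1 promoter, chr9:8004639-8004846: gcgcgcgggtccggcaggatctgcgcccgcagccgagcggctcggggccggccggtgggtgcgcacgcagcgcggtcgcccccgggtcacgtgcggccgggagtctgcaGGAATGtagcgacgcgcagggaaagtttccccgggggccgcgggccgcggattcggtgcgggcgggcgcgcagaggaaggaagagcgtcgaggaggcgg
Wwtr1 promoter, chr3:57575911-57576160: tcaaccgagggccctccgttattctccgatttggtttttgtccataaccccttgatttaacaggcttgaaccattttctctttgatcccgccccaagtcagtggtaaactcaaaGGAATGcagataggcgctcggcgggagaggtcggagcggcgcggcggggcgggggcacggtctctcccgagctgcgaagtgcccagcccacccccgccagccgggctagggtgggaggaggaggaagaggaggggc
Ccn1 promoter, chr3:145649986-145650235: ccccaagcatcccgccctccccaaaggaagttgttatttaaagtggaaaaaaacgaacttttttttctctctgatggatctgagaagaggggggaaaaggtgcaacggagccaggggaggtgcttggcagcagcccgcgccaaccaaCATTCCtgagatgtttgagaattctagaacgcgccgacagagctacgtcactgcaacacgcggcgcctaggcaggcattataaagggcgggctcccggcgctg
Ankrd1 promoter, chr19:36119845-36120094: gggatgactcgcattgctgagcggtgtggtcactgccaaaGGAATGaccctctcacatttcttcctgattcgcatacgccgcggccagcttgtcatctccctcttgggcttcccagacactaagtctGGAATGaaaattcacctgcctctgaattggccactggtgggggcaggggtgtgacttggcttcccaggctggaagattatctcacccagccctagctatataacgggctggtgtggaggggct
The site begins 141 bases before the start in Yap1, 136 in Wwtr1 and 103 in Ccn1, and Ankrd1 holds 2, at 210 and 123 bases. Within 250 bases before the start, these letters were found in 12.6% of 32851 RefSeq promoters. Counted by gene, they were found in 14.4% of all genes with a promoter entry, in 13.2% of those measured here, in 3 of the 8 core genes with a promoter entry (Sav1 is the other) and in 6 of 15 target genes with one. A match of letters does not show that a TEAD factor binds there, and no other motif was searched.

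The mRNA of the 3 classical targets Ccn1, Ankrd1 and Ccn2 was low in both media. Ccn1, the matricellular gene also called Cyr61, had 4.55 on the DMEM array and 4.69 on the DMEM/F12 array, a difference of 0.14. Ankrd1 had 3.69 on the DMEM array and 4.07 on the DMEM/F12 array, below background on both arrays, so its difference of 0.38 is one of dim values. Ccn2, also called Ctgf, had 5.00 and 4.98, a difference of -0.02. Thus none of these 3 classical targets reached 1.5-fold, where 0.928% of all genes were higher and 0.727% lower by as much. The difference past 1.2-fold was that of Ankrd1, where 11.2% of all genes were at least 1.2-fold higher.

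Over the whole list of 22 target genes, all measured, 15 were above background, a share near the 66.3% of all genes. In DMEM/F12, 15 read higher and 5 lower, against 47.2% and 45.5% of all genes, and the median was 0.085 against 0.00. The targets with the largest differences above background were Asap1, which encodes a regulator of ARF GTPases and of actin, with 7.52 on the DMEM array and 7.97 on the DMEM/F12 array (0.45), Lats2 at -0.27, and Myof, the gene of the membrane repair protein myoferlin, with 8.43 and 8.67 (0.24). Foxf2, a transcription factor gene, also differed by 0.24. At 1.2-fold, 3 of the 22 were higher and 1 was lower, against 11.2% and 10.5% of all genes, and 2 of these 3 were not above background. The only target past 1.5-fold, where 0.928% of all genes were higher, was Nt5e, at 0.63 from 3.30 in DMEM to 3.93 in DMEM/F12. Nt5e was not above background on either array, and it was named after its value was seen. With values below background raised to it, the median of the 22 was 0.02. These targets are known from other cell types, and some of them have other regulators; Lats2, Amotl2, Ptpn14 and Fjx1 are also in the core or in another list.

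**Figure D4:**
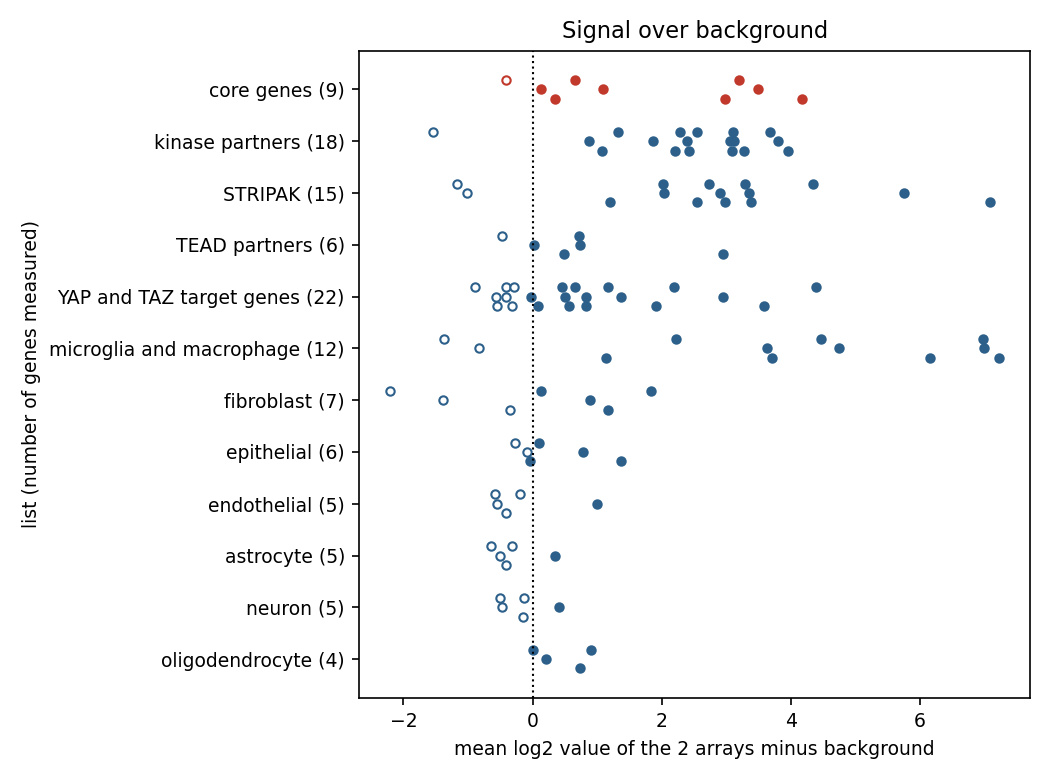
Mean log2 value of both arrays minus the mean background (x axis, dotted line at 0) for the core genes (red), 4 lists of the pathway and the marker lists of 7 cell types (blue) (y axis, number of measured genes in parentheses). Filled dots are genes above background on at least 1 array and open dots are not; 4 core genes lie at about 3 or more, the other 5 lie in the range of the markers of other cell types.

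The Fat genes and Dchs1, a Dachsous gene, had low signal, as did Fjx1, related to the fly gene four-jointed. In the fly, Fat interacts with Dachsous, and the product of four-jointed acts on both. The study gives Fat3 as an ortholog of another fly gene, fat-like, and whether Fat3 feeds into the pathway was not tested. Of the 6 genes measured, 4 read higher in DMEM/F12, 1 read lower and 1 was equal, against 47.2% higher and 45.5% lower over all genes. Their median of 0.175 became 0.09 with values below background raised to it. The count of higher genes and the median include Fat3, the gene the study turned to, which had been picked from these arrays. Its mean over 15 clusters was 4.03 on the DMEM array, below the background of 4.15, and 4.60 on the DMEM/F12 array (a difference of 0.58). Fat3 counted as above background in DMEM because any cluster that passes was enough. The study also reported higher FAT3 mRNA in DMEM/F12 by quantitative RT-PCR. Fat1 differed by 0.32, Fat2 by 0.00, Fat4, which was below background, by 0.19, Dchs1 by 0.16 and Fjx1 by -0.06. Beside these the 9 core genes lay between -0.27 and 0.17. Across the 95 measured genes of the 7 lists outside the core, none was 2-fold apart, 14 were at least 1.2-fold higher and 4 at least 1.2-fold lower in DMEM/F12, where 11.2% and 10.5% of all genes were, and the median was 0.01. The 14 include Fat3 and genes not above background on either array, such as Ankrd1 and Nt5e, while the 4 lower ones were all above it.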

How the data were processed

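BV2 cells were cultured in DMEM or DMEM/F12 and 1 Affymetrix GeneChip Mouse Gene 1.0 ST array was hybridized per medium. The authors used Transcriptome Analysis Console and Affymetrix Expression Console (named in the methods and in the submitters' notes) and deposited log2 values for 28944 transcript clusters. The sources used here do not give program versions, summarization, normalization or build.

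The values were used without further scaling. In the platform annotation 21789 clusters had exactly 1 symbol, 1621 several and 5534 none, and only the first kind was named. For 21698 of these the symbol was taken from RefSeq by the gene identifier of the annotation, and the rest kept the annotated symbol. A gene with several clusters took their mean log2 value, and it counted as above background if any of its clusters was. All 10 core genes were named by rule, and in each of the 7 lists the 3 above background that differed most (ties included), with Ccn1, Ccn2, Ankrd1, the Fat genes and Dchs1. Mob1a, Mob1b, Tead4, Fjx1 and the marker genes given by name were added after their values were seen. The core genes and the lists were chosen with earlier results of these data known. With 1 array per medium no test was run, and the number of arrays limits the precision. Alternatives were median centring, quantile normalization, a subtracted loess curve (span 0.3), values raised to background, only genes above background, the brightest cluster per gene and other backgrounds. Python 3.11.15, numpy 2.4.6, pandas 2.3.3, statsmodels 0.14.6 and matplotlib 3.10.9 were used. The steps were run on simulated arrays with planted fold changes and little noise, which checks the code and not the differences given here.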

Additional observations from a re-analysis of the deposited data

How the results depend on the processing

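No paired analysis was possible because the media had 1 array each. Shifts of over 0.1 in a log2 value, or of over 1.5 times in a count, were taken as moves. By this measure 1 value moved: Tead1 differed by 0.17 with its brightest cluster alone in place of the mean of both. The limit of 0.1 is larger than the size of every list median except that of FAT and Dachsous. A median could therefore vanish without counting as a move, and the measure says little about the medians. The count of core genes above background was 8 with the 95th percentile of receptor clusters, 6 with the 99th (Yap1 and Tead2 lost as well as Tead1) and 9 with the 90th. Lats2 ranged from -0.30 to -0.27 and passed 1.2-fold, and no core gene passed 1.5-fold, under the 3 scalings, with values raised to the 95th percentile background, with only genes above it and with the brightest cluster per gene. The differences were not recomputed under the other backgrounds, and the 1.2-fold counts of the 7 lists were not recomputed under any alternative. The median of the core genes ranged from 0.00 to 0.11, the highest with the brightest cluster per gene. The median of the target genes ranged from 0.02 to 0.085 and that of the TEAD partners from -0.09 to 0.00. For the membrane scaffolds it ranged from 0.02 to 0.08, and for FAT and Dachsous from 0.09 to 0.175. Signal over background limits Yap1, Tead1 and Tead2 most, and without replicates no error of a difference is known.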

Other observations

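Equal values on both arrays were more frequent than their neighbours. Of the 28944 transcript clusters, 2311 (7.98%) had the same value to 2 decimals in DMEM and DMEM/F12, while 370 differed by -0.01 and 348 by 0.01. The share of equal values was 13.8% among clusters not above background and 4.39% among those above it. No core gene had equal values, but 7 of the 95 measured genes of the lists around the core did, among them Tead4 and Fat2. The cause was not tested.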
